A study of Homo sapiens with 2 samples.

Results

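Matriptase (ST14), the protease inhibitors that restrain it and the urokinase system of plasminogen activation were measured in MKN1, a human cell line established from gastric cancer, made to overexpress RHOA Y42C or RHOA wild-type. The genes were chosen by symbol in the array's platform annotation, and 9 of the 10 genes asked for were found there among 17687 named genes. They were ST14, SPINT1, SPINT2, PRSS8, TMPRSS4, HPN, PLAU, PLAUR and PLAT, with 1 probe set each. The other one, F2RL1, which encodes the protease-activated receptor PAR2, was not analysed here. The set was proposed with the difference between these arrays already known, so the differences of its members are a description and no test applies to them.

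Both lines were MKN1 cells carrying the retroviral vector pBABE-puro with a RHOA insert and selected with puromycin, the insert being RHOA Y42C in one line and RHOA wild-type in the other. There was 1 array per line, so no error between samples could be given, and the values compare these 2 lines and not the 2 alleles in general. An array of parental or empty-vector cells was not analysed here, so it cannot be told in which line a level changed. The labels do not say whether each line was a pool or 1 clone. RHOA signal was 16.30 in the Y42C array and 16.47 in the wild-type array, and because both lines carried a RHOA vector this does not check the labels. The deposited values were taken as log2 signal from their range, and every fold below assumes that base.

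Matriptase is a serine protease anchored in the plasma membrane of epithelial cells. It activates other proteins by cutting them, among them prostasin, the precursor of hepatocyte growth factor and the urokinase precursor. It is held in check by membrane-bound Kunitz-type inhibitors, the products of SPINT1 and SPINT2. Urokinase, bound to its receptor on the cell surface, converts plasminogen into plasmin, which degrades fibrin and matrix proteins. RHOA is a GTPase that acts on the actin cytoskeleton, and Y42C replaces a tyrosine with a cysteine.

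Signal for matriptase, its inhibitor SPINT1, urokinase and the urokinase receptor was higher in the Y42C array than in the wild-type array, and signal for prostasin was lower. The largest difference was that of SPINT1 (6.96-fold), followed by PLAU (6.50-fold), ST14 (4.76-fold) and PLAUR (2.75-fold). PRSS8 was 3.97-fold lower. Of the 8 member genes above the expression minimum, 4 passed 2-fold upward and 1 passed it downward in the Y42C array. In the background of all 11802 genes above the minimum, 7.46% passed 2-fold upward and 9.8% downward. Because the set was proposed from this same contrast, nothing is read from that comparison. All 8 genes were above the minimum on both arrays, so no member passed through 1 array alone.

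The minimum was set from the signal of 349 olfactory receptor genes, whose main site of use is the nose. It was their 95th percentile, 5.14 in the Y42C array and 5.17 in the wild-type array. The difference of these genes between the arrays had an SD of 0.440 on the log2 scale, and 4.30% of them were at least 2-fold apart, the farthest by 1.59. This is a spread between genes near background and does not replace replicates. Across all genes above the minimum the difference had a median of -0.07 and an SD of 0.768.

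**Figure D1:**
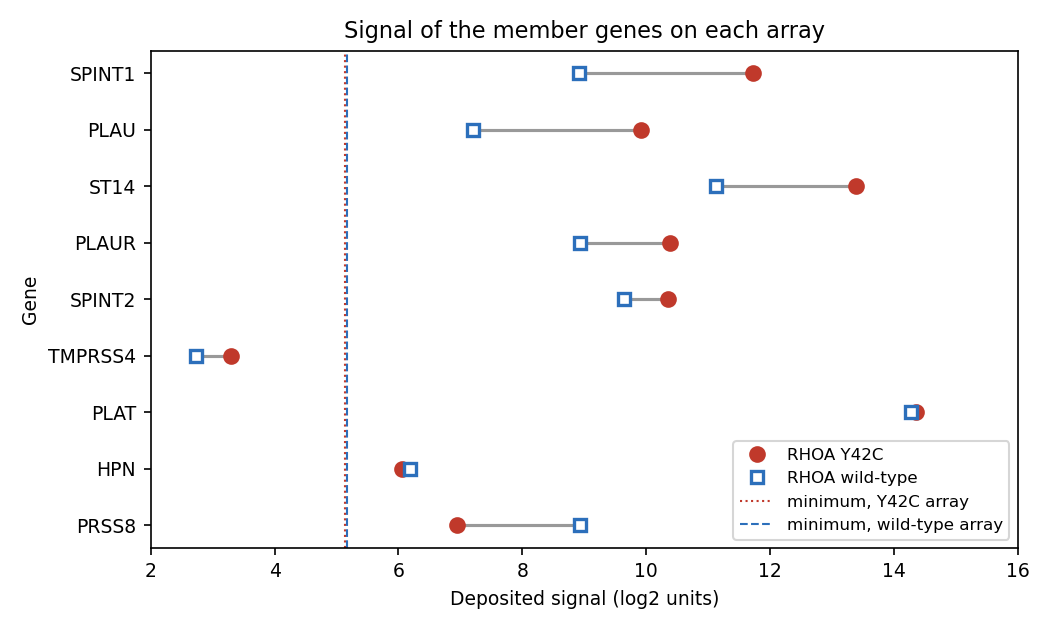
Deposited log2 signal (x axis) of the 9 member genes (y axis), ordered by difference. Filled circles are the RHOA Y42C array, open squares the RHOA wild-type array, 1 array each, and vertical lines the expression minimum of each array. SPINT1, PLAU, ST14 and PLAUR lie to the right in the Y42C array, PRSS8 lies to the left, and TMPRSS4 is below the minimum on both.

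RefSeq promoter windows on GRCh38.p14 were read for 5 of the 10 genes, with 7 windows in all. Each covered 250 bases before an annotated transcription start and the first 30 after it. No window of ST14, SPINT2, PRSS8, TMPRSS4 or PLAT was read, so the motif counts below leave these genes out. Of the genes that were higher in the Y42C array, SPINT1 and PLAU had 2 windows each among those read, PLAUR had 1 and ST14 had none. Below are 1 window of each of these 3 genes, shown to set the letters of the promoters of the higher genes side by side, 5′ to 3′ on the strand of the gene. Capitals mark the letters TGANTCA, the AP-1 motif, which reads the same on both strands.
SPINT1, chr15:40843798-40844077, plus strand: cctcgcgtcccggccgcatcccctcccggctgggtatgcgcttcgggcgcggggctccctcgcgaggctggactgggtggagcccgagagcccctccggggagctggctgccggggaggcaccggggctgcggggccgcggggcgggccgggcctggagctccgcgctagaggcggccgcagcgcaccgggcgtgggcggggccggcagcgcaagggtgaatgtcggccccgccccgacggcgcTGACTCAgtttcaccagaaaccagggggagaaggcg
PLAU, chr10:73910882-73911161, plus strand: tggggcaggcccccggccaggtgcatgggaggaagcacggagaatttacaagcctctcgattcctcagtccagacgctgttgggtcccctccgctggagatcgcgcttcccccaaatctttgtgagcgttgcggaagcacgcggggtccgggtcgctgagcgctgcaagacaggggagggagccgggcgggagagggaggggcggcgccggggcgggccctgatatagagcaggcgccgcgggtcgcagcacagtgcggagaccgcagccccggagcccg
PLAUR, chr19:43670140-43670419, minus strand: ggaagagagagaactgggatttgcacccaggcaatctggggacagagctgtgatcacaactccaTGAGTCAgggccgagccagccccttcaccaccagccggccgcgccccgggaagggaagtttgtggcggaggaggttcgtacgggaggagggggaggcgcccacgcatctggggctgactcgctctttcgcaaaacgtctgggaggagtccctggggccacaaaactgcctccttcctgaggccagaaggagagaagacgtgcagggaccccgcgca

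The AP-1 motif was present in 2 of the 7 member windows, against 7.35% of the 35116 RefSeq windows of the same length. In PLAUR it was TGAGTCA and began at base -186, counted so that base -1 is the last before the annotated start. In the SPINT1 window shown it was TGACTCA and began at base -6, so it overlapped the start itself. The other SPINT1 window and both PLAU windows did not hold these letters. The GC box (GGGCGG on either strand) was in 4 of the 7 windows, against 44.1% of all windows, and stood 3 times each in the SPINT1 and PLAU windows shown and 0 times in the PLAUR window. The TEAD motif (CATTCC on either strand) was in 1 member window, that of F2RL1, against 13.3% of all windows. The CArG box, which binds SRF, was in 0 member windows and in 1.25% of all windows. A match is a description of the letters and not a measured binding site. The windows differed in base composition, with 77.9% G and C in the SPINT1 window shown, 69.6% in the PLAU window and 63.6% in the PLAUR window.

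ST14 encodes matriptase, the protease at the head of this cascade. Its signal was 13.38 in the Y42C array and 11.13 in the wild-type array, a difference of 2.25 on the log2 scale. A total of 70 of the 11802 genes above the minimum (0.593%) had a difference at least as positive. Both values lay far above the minimum.

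SPINT1 encodes the Kunitz-type inhibitor that forms complexes with matriptase at the cell surface. Its signal was 11.72 in the Y42C array and 8.92 in the wild-type array, a difference of 2.80. It ranked 24th from the top among genes above the minimum (0.203%). SPINT2 encodes a second membrane-bound Kunitz-type inhibitor, which also acts on prostasin and hepsin. Its signal was 10.36 in the Y42C array and 9.64 in the wild-type array, a 1.65-fold difference that did not pass 2-fold and that 14.0% of genes equalled or exceeded. The log2 difference of SPINT1 was 2.08 larger than that of SPINT2. Signal for the protease and for this inhibitor was higher in the same array, and the log2 difference of ST14 minus that of SPINT1 was -0.55.

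PRSS8 encodes prostasin, a glycolipid-anchored serine protease that acts with matriptase in epithelia and is known for activating the epithelial sodium channel. Its signal was 6.94 in the Y42C array and 8.93 in the wild-type array, a difference of -1.99. It ranked 72nd from the bottom (0.610%), and it was the one member at least 2-fold lower. ST14 and PRSS8 differed in opposite directions, with their log2 differences 4.24 apart.

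TMPRSS4 and HPN encode further proteases anchored in the membrane, and the product of HPN is hepsin, abundant in liver. TMPRSS4 signal was 3.30 in the Y42C array and 2.73 in the wild-type array, below the minimum on both, so no fold is given. HPN signal was 6.06 in the Y42C array and 6.19 in the wild-type array, a difference of -0.13 on the log2 scale at values close to the minimum.

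PLAU encodes urokinase, the plasminogen activator that works at the cell surface. Its signal was 9.91 in the Y42C array and 7.21 in the wild-type array, a difference of 2.70. It ranked 35th from the top (0.297%). PLAUR encodes the glycolipid-anchored receptor that binds urokinase, and its signal was 10.39 in the Y42C array and 8.93 in the wild-type array, a difference of 1.46 that 2.91% of genes equalled or exceeded. The difference of the protease was 1.24 larger than that of its receptor on the log2 scale.

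PLAT encodes tissue-type plasminogen activator, the other main activator of plasminogen, which works mostly on fibrin. Its signal was high in both arrays, 14.35 in the Y42C array and 14.28 in the wild-type array, a difference of 0.07. The log2 differences of PLAU and PLAT were 2.63 apart.

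**Figure D2:**
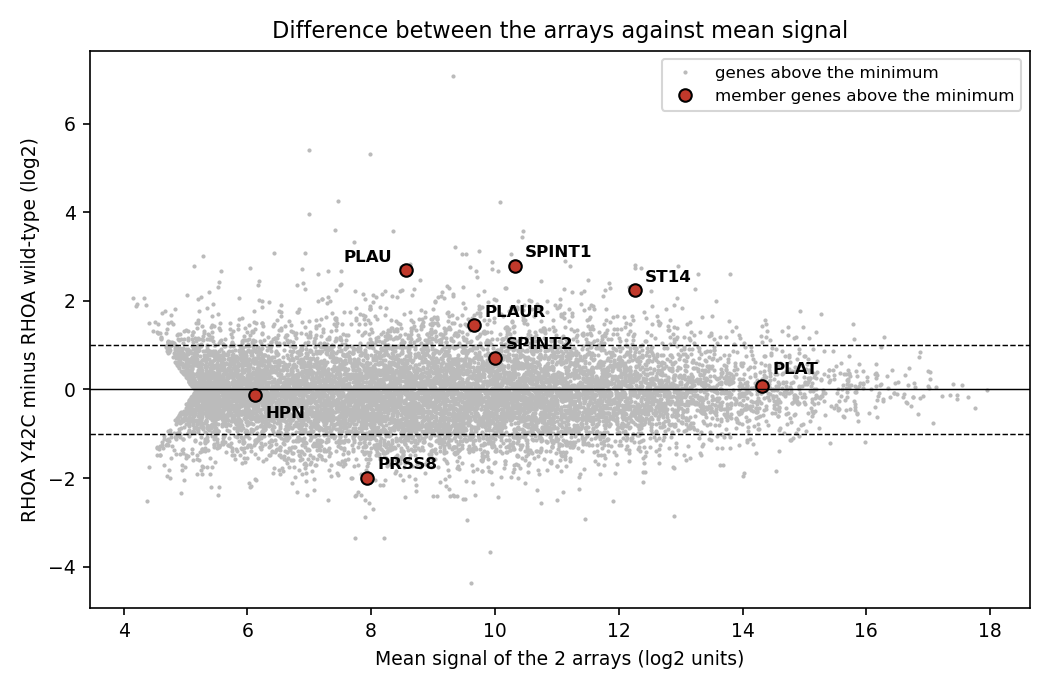
Difference of RHOA Y42C minus RHOA wild-type (y axis, log2) against the mean signal of the 2 arrays (x axis, log2 units) for the 11802 genes above the minimum (grey) and the 8 member genes among them (red). Dashed lines mark 2-fold. SPINT1, PLAU and ST14 stand in the sparse upper part at medium to high signal, and PLAT and HPN lie near 0.

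The genes around these proteases were read from 5 lists of 87 genes, of which 80 were named here and 46 were above the minimum. In the Y42C array 4 of the 46 (8.7%) were higher by 2-fold or more and 5 (10.9%) were lower by as much, and the other 37 lay within 2-fold. Their median difference was 0.02, against -0.07 for all genes above the minimum. These shares lay near the background of 7.46% and 9.8%. The lists leave out the member genes and were chosen with earlier results of these data known, so nothing is read from that comparison either.

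Among 19 other serine proteases named here, most of them membrane-anchored, 4 were above the minimum and 15 below it on both arrays. None of the 4 was 2-fold apart. CORIN, which processes natriuretic peptide precursors, had the most positive difference of the 4 (0.81), with a signal of 5.83 in the Y42C array and 5.02 in the wild-type array, and it was at least 1.58-fold higher because the wild-type value was below the minimum. PRSS21, a protease known from testis, had the most negative difference of the 4 (-0.33), with a signal of 4.88 in the Y42C array, below the minimum, and 5.21 in the wild-type array. TMPRSS2, a relative of matriptase known from prostate, was below the minimum on both.

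Substrates and receptors of the matriptase cascade differed in both directions, with 2 of 11 at least 2-fold higher and 1 lower (median 0.12). FLG encodes profilaggrin, whose processing depends on matriptase and prostasin in mouse epidermis, and its signal was 10.38 in the Y42C array and 8.26 in the wild-type array (4.35-fold higher). PDGFC, a growth factor that tissue-type plasminogen activator can activate, had 9.75 in the Y42C array and 8.50 in the wild-type array (2.38-fold higher). DSG2, a desmosomal cadherin, had 10.09 in the Y42C array and 11.71 in the wild-type array (3.07-fold lower). MET, the receptor of hepatocyte growth factor, had 11.75 in the Y42C array and 11.63 in the wild-type array, while HGF itself was below the minimum on both. Of the receptors related to PAR2, F2R had 5.66 in the Y42C array and 6.65 in the wild-type array, a difference of -0.99, and F2RL3 had 9.71 in the Y42C array and 10.08 in the wild-type array.

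Of the other inhibitors of these proteases, 0 of 8 above the minimum were higher by 2-fold or more and 2 were lower (median -0.07). The shares of all genes were 7.46% higher and 9.8% lower, and 8 genes are too few to set against them. SLPI, a secreted inhibitor of leukocyte and trypsin-like proteases, had 12 in the Y42C array and 13.78 in the wild-type array (3.43-fold lower). TFPI, a Kunitz-type inhibitor of the tissue factor pathway, had 10.57 in the Y42C array and 11.74 in the wild-type array (2.25-fold lower). SERPINF2, the main plasmin inhibitor, had the most positive difference of the 8 (0.86), with a signal of 7.44 in the Y42C array and 6.58 in the wild-type array. SERPINE2, a serpin that inhibits urokinase and thrombin, had 10.50 in the Y42C array and 10.47 in the wild-type array.

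Genes of plasminogen activation and clearance had 0 of 11 at least 2-fold higher and 1 lower (median -0.07), beside 7.46% and 9.8% of all genes. The lower gene was CTSL, a lysosomal cysteine protease, with 11.46 in the Y42C array and 14.32 in the wild-type array. VTN, a matrix protein bound by the urokinase receptor, had the most positive difference of the 11 (0.56), with a signal of 7.78 in the Y42C array and 7.22 in the wild-type array. The plasminogen-binding genes ANXA2 (17.46 in the Y42C array and 17.34 in the wild-type array) and S100A10 (16.56 in the Y42C array and 16.67 in the wild-type array) were bright in both lines. PLG, the plasminogen gene itself, was below the minimum on both, and plasminogen is made mainly by liver.

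PLAUR belongs to a family of small proteins with the Ly6 fold. Of 12 relatives that exceeded the minimum 2 were higher by 2-fold or more and 1 was lower (median 0.20). All genes above the minimum had 7.46% higher and 9.8% lower, and 12 genes are too few to set against these shares. PSCA had 8.71 in the Y42C array and 6.33 in the wild-type array (5.21-fold higher). LYPD3, a glycolipid-anchored relative found in squamous epithelia, had 12.07 in the Y42C array and 10.03 in the wild-type array (4.11-fold higher). LY6K had 10.24 in the Y42C array and 11.43 in the wild-type array (2.28-fold lower). Most of the family, including CD59, an inhibitor of complement, lay within 2-fold.

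**Figure D3:**
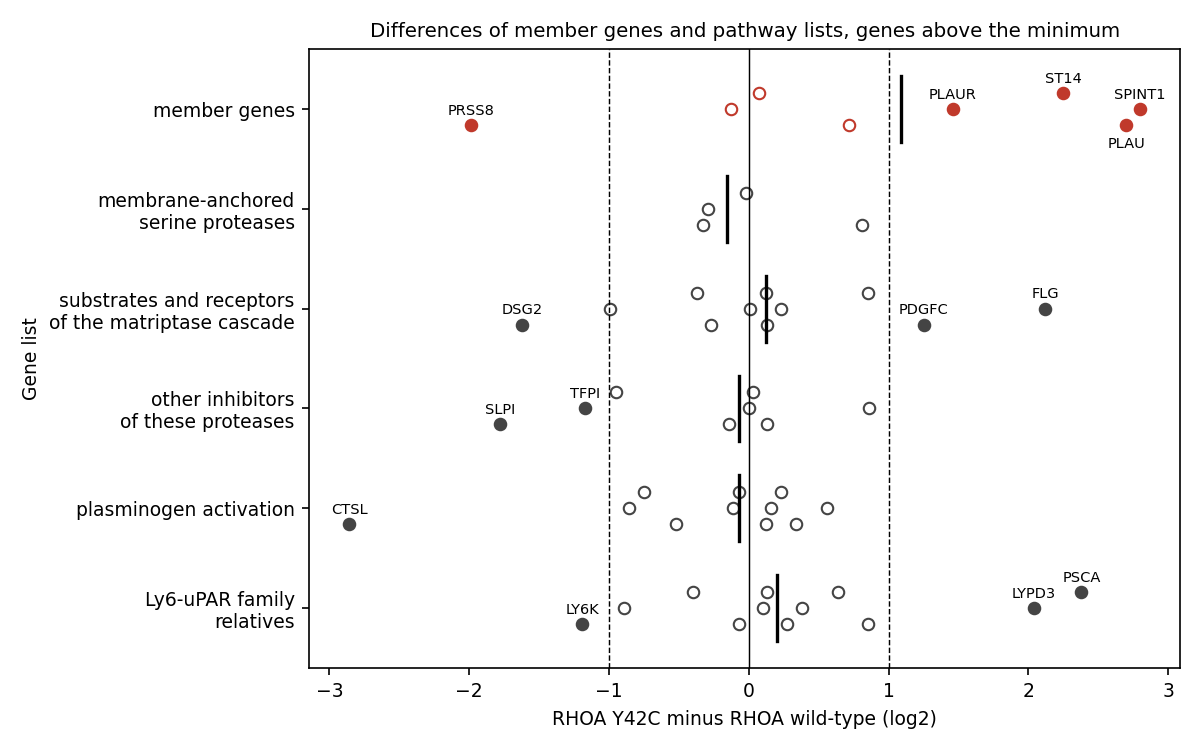
Difference of RHOA Y42C minus RHOA wild-type (x axis, log2) for the 8 member genes and for 5 pathway lists (y axis), genes above the minimum only. Each point is a gene, filled and named where it is at least 2-fold apart, dashed lines mark 2-fold and thick bars are medians; the lists' medians lie between -0.16 and 0.20.

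The members do not form 1 cluster in the genome. ST14 and TMPRSS4 are both on chromosome 11, and SPINT2, HPN and PLAUR are on chromosome 19, while SPINT1, PRSS8, PLAU and PLAT are on chromosomes 15, 16, 10 and 8. Genes of a shared chromosome differed in size of difference, with PLAUR at 1.46, SPINT2 at 0.72 and HPN at -0.13 on the log2 scale. Neighbouring genes were read as a description of the chromosome around each member. For each of the 9 member genes the nearest named protein-coding gene on either side was taken, which gave 18 genes, 12 of them above the minimum. Of these 12, 1 was higher and 2 were lower by 2-fold or more, beside 7.46% and 9.8% of all genes above the minimum. The 12 pool neighbours of members that were 2-fold apart with neighbours of members that were not. The pooled count therefore cannot show whether the differences extended along the chromosome, and this was not tested. ZBTB44, beside ST14, had 9.79 in the Y42C array and 8.63 in the wild-type array (2.23-fold higher), and APLP2 on the other side of ST14 had 14.88 in the Y42C array and 15.05 in the wild-type array. RHOV and PPP1R14D, on either side of SPINT1, were below the minimum on both arrays. VCL, beside PLAU, encodes vinculin of cell adhesions and had 13.76 in the Y42C array and 12.82 in the wild-type array, a difference of 0.94. CAMK2G, on the other side of PLAU, differed by 0.38. The neighbours of PLAUR and PRSS8 that were above the minimum, CADM4 and KAT8, differed by 0.02 and 0.07. PPP1R14A, an inhibitor of myosin phosphatase beside SPINT2, was 3.05-fold lower with 11.36 in the Y42C array and 12.97 in the wild-type array, and AP3M2, beside PLAT, was 2.43-fold lower.

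**Figure D4:**
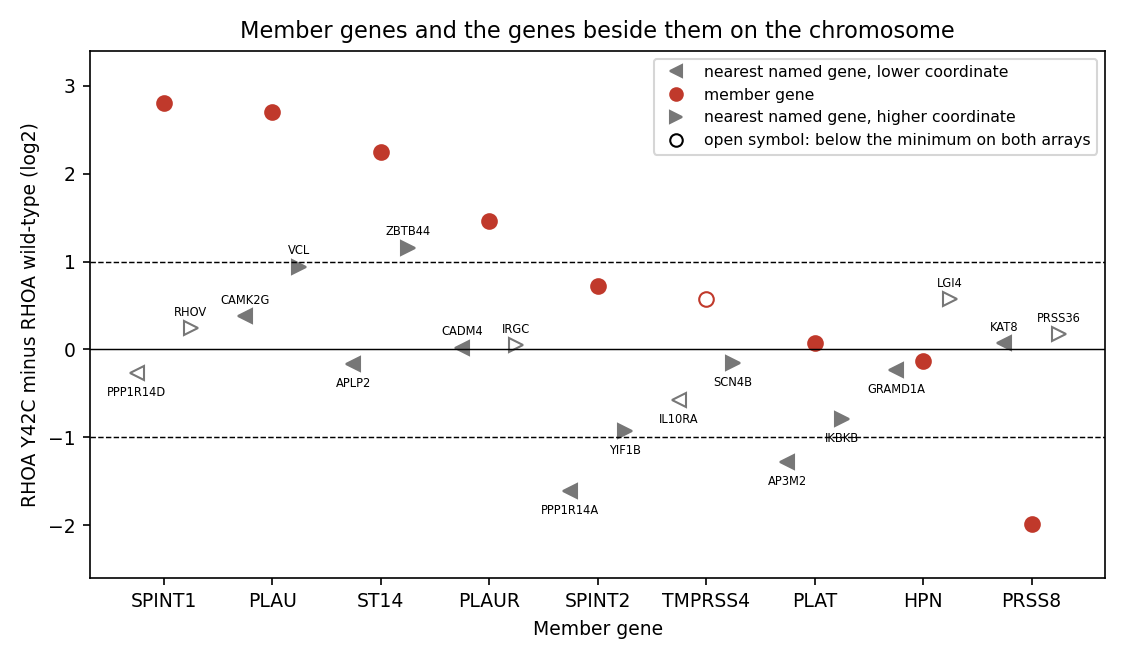
Difference of RHOA Y42C minus RHOA wild-type (y axis, log2) for each member gene (red circle) and the nearest named gene on either side (grey triangles), by member (x axis). Open symbols are below the minimum on both arrays and dashed lines mark 2-fold. The genes beside SPINT1, PLAU, ST14 and PLAUR all lie lower than the member. The members were chosen with their differences known, so nothing is read from this order.

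Because ST14, SPINT1, SPINT2 and PRSS8 are typical of epithelial cells, markers of cell type were read on the same arrays. Of 13 epithelial markers with a probe set, 10 exceeded the minimum, and 0 were higher and 1 lower by 2-fold or more. The background for each marker list was 7.46% of all genes above the minimum higher and 9.8% lower by as much. The mean signal of all 13, with those below the minimum included, was 10.6 in the Y42C array and 10.5 in the wild-type array. The keratin KRT8 had 17.94 in the Y42C array and 17.96 in the wild-type array, and CLDN7 was the lower gene (9.31 in the Y42C array and 10.61 in the wild-type array). CDH1, the epithelial cadherin, was below the minimum on both arrays (3.86 in the Y42C array and 3.92 in the wild-type array). Of 10 gastric markers 3 were above the minimum, none of them past 2-fold, with a median difference of 0.57. They were GAST (6.71 in the Y42C array and 5.96 in the wild-type array), CLDN18 (6.05 in the Y42C array and 5.48 in the wild-type array) and ATP4A (6.01 in the Y42C array and 6.03 in the wild-type array). The gastric mucins MUC5AC and MUC6 were below the minimum on both. Mean signal of leukocyte markers was 5.34 in both arrays, with 5 of 9 above the minimum, and they differed in both directions. PTPRC, the general leukocyte marker, had 5.39 in the Y42C array and 4.61, below the minimum, in the wild-type array. CD14, a marker of monocytes, was the one past 2-fold, with 5.67 in the Y42C array and 7.45 in the wild-type array (3.43-fold lower), and CD68 had 10.15 in the Y42C array and 10.66 in the wild-type array. Mean signal was 5.77 in the Y42C array and 5.53 in the wild-type array for endothelial markers (5 of 8 above the minimum), and 6.15 in the Y42C array and 5.53 in the wild-type array for fibroblast markers (2 of 7), among which LUM alone was higher by 2-fold or more (14.37 in the Y42C array and 12.09 in the wild-type array). Both samples were cultures of MKN1, so signal for a marker does not show that cells of the type it is named for were present. In bulk RNA fewer cells that express a gene and less of its RNA per cell cannot be told apart. The part of these markers in the differences above was not tested.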

How the data were processed

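Total RNA of 2 MKN1 lines was measured on 1 Affymetrix array each. The authors deposited 1 value per probe set and array, 21448 in all, between 2.23 and 18.16, which were taken as log2 signal from their range. The authors' software was Affymetrix Expression Console, per the submitters' processing notes. Its version, the summary method and the normalization are not stated there. The platform annotation named 17709 probe sets, and 3739 were unnamed here. Probe sets of 1 gene were averaged (20 of 17687 genes). Genes that reached the minimum on either array were kept, and where the dimmer array was below it the fold is given against the minimum as a lower bound. Differences are Y42C minus wild-type, counted past 2-fold. With 1 array per group no test was made, and precision is limited by the number of arrays. The files name no genome build, so the gene table gave only chromosome and gene order. The members and lists were chosen with earlier results of these data known. The rule named the 10 member genes, RHOA, every list gene past 2-fold and the genes at either end of a list, and MET, HGF, F2R, F2RL3, SERPINE2, ANXA2, S100A10, PLG, CD59, TMPRSS2, the markers, the neighbours and the promoter window were chosen after values were seen. The code was tested on simulated data, with changes planted in genes well above the minimum and less noise than the spread seen here. That test does not show how often unchanged genes pass 2-fold. Tools were matplotlib 3.10.9, statsmodels 0.14.6, NumPy 2.4.6, pandas 2.3.3 and Python 3.11.15.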

Additional observations from a re-analysis of the deposited data

How the results depend on the processing

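Under 6 alternatives (centring on the array median, quantile normalization, removal of a lowess trend on level, addition of 16 to the linear signal, values below the minimum set to it, and the brightest probe set) the log2 differences of ST14 (2.24 to 2.32), SPINT1 (2.76 to 2.92), PLAU (2.58 to 2.83), PLAUR (1.43 to 1.58) and PRSS8 (-1.99 to -1.86) kept their direction and their side of 2-fold. SPINT2 (0.71 to 0.84), HPN (-0.13 to -0.07) and PLAT (0.07 to 0.13) stayed within 2-fold. For these genes the last 2 alternatives could not change a value. Each has 1 probe set, and each was above the minimum on both arrays. TMPRSS4, below the minimum on both arrays, differed by -0.036 when both values were set to the minimum. At 1.5-fold, 2106 genes were higher and 2758 lower, with 9 and 10 of the pathway lists and 5 and 1 of the members, SPINT2 being the added one. At 4-fold, 118 were higher and 69 lower, with 0 members and 1 pathway list gene lower. At that threshold 3 members and 3 pathway list genes were higher. Without a minimum, or with the array median or the 90th percentile of olfactory receptor genes as minimum, 4 members were higher and 1 lower, as reported. These members pass each of those minima, so their counts could not change. Of all genes, in the same order, 977, 748 and 911 were higher and 1196, 995 and 1176 lower. The number of genes kept changes with the minimum, so these counts are not shares. No paired analysis was possible because each group has 1 array. All differences rest on 2 arrays, and without replicates none can be set against biological or technical error.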
